A study of Capra hircus with 23 samples.

Results

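Of the 28931 features in the count table, 34 had 10 or more counts in each of CK1 and CK2, which are libraries of untreated goat ear fibroblasts, and 0 counts in each of the 3 libraries made after 8 days of induction. A feature is an entry of the annotation used for counting, listed under a running ID such as gene1181. The 34 features were chosen by these day 0 and day 8 counts, so their levels on those days are given as a description with no test. The third day 0 library, CK3, and the 11 libraries of days 1, 2, 3, 4 and 6 were not used in the choice, and tests were run on those 11 libraries. The files did not pair the IDs with gene names. By ID, 0 of all 28931 features, and so 0 of the 34, matched the RefSeq table of 28911 goat genes. The features are therefore described by ID, level, length and time course, and their functions are not given here. No fibroblast or epithelial marker could be looked up for the same reason, so the labelled cell types were not checked against markers.

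The samples were goat (Capra hircus) ear fibroblasts grown on Matrigel-coated plates and switched to the BFRTV induction medium of the labels. The study's methods name the small molecules of the 5i system as Forskolin, TTNPB, VPA, Repsox and tranylcypromine, and describe ear margin fibroblasts of Guanzhong dairy goats a few months old. Day 0, the untreated control, had 3 libraries (CK1 to CK3), days 4 and 8 had 3 each, and days 1, 2, 3 and 6 had 2 each, named here by day and number (5i1d1 is library 1 of day 1). The labels call the day 8 cells induced mammary epithelial cells, and the methods speak of biological replicates for the day 0 and day 8 groups. The sample titles carry the code DF6 for 1 sample of each day and DF7 for the others, without saying what the codes are, and the column names do not show which library has which code. Separate animals or cultures are not named, so a p-value here reflects the spread among these libraries only, and that spread may be technical.

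Fibroblasts are connective tissue cells that make and remodel the extracellular matrix, while mammary epithelial cells line the milk ducts and alveoli and secrete milk. In chemical reprogramming, cells of one lineage are moved towards another by compounds that act on signalling and chromatin in place of added transcription factor genes. Forskolin raises cyclic AMP, TTNPB activates retinoic acid receptors, VPA inhibits histone deacetylases, Repsox inhibits the TGF-beta type I receptor, and tranylcypromine inhibits the histone demethylase LSD1. Switching off the transcripts of the starting cell is one side of such a conversion, and the 34 features are candidates for it by their counts alone. In RNA of a whole culture, fewer cells of a type and less RNA per cell cannot be told apart.

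Library totals ran from 21540742 to 26165393 counts, and 0 counts in a library still allow a true level of up to 3 counts, that is 0.115 to 0.139 CPM (counts scaled to a library total of 1000000). These limits cover counting error only. CK3 stood apart from the other day 0 libraries, and which DF code it carries cannot be told from the files. Its rank correlation with CK1 was 0.572 over 13201 features, where CK1 and CK2 reached 0.998, and it had counts for 15605 features against 18093 and 18102. Its TMM factor, which scales a library by the bulk of its features, was 0.372, where all other libraries had 0.970 or more. Within days 1 to 6, the libraries of day 1 were the least alike, with a rank correlation of 0.867. The libraries numbered 3 at days 4 and 8 also differed from the others of their day, but less than CK3. The rank correlations of 5i4d3 were 0.979 and 0.983, where 5i4d1 and 5i4d2 reached 0.997. Those of 5i8d3 were 0.988 and 0.987, where 5i8d1 and 5i8d2 reached 0.997. A link with the DF codes was not tested.

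At day 0 the 34 features were mostly low. Their mean over CK1 and CK2 ran from 0.434 CPM in gene24425 to 10.2 CPM in gene1181, with a median of 1.14 CPM, against a median of 24.3 CPM over the 14302 features with 10 or more counts in both libraries. CK1 and CK2 were within 1.5-fold of each other for 27 of the 34. Only 5 features had 100 or more counts in both libraries, and 15 had under 20 counts in at least one of them. At the lower threshold, 4 members had a lower count of 10, and 1 feature outside the set had a lower count of 8 or 9 with 0 counts at day 8. On the side of day 8, another 25 features with 10 or more counts in CK1 and CK2 had a single count over the 3 day 8 libraries, and 22 had 2. The edge of the set is thus a matter of single counts. The 34 were 0.742% of the 4583 features with 10 or more counts in CK1 and CK2 whose day 0 mean lay within their range. Any of these at 0 in every day 8 library is a member by the rule. The 4583 are called features of like day 0 level below. They were matched by the range alone, not by how levels are spread within it, and they include the 34.

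The 3 day 8 libraries held 72974918 counts together, so that 3 counts over the group correspond to 0.0411 CPM. Against this limit the day 8 level was at least 249-fold lower than the CK1 and CK2 mean for gene1181, at least 27.8-fold lower for the median feature and at least 10.5-fold lower for gene24425. These bounds rest on the values that chose the set.

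The summed level of the 34 features was lower on each later day. It was 71.4 CPM in CK1 and 71.9 CPM in CK2, and 46.0 CPM in CK3. At day 1 it was 19.1 CPM in 5i1d1 and 23.5 CPM in 5i1d2, which is 29.7% of the CK1 and CK2 mean for the day. At day 2 it was 7.68 CPM in 5i2d1 and 10.7 CPM in 5i2d2, or 12.8%. The libraries of day 1 lay above both of day 2, and those of day 2 above both of day 3, where 3.85 and 4.87 CPM were left (6.08%). Day 4 gave 2.18, 2.38 and 2.36 CPM (3.22%), and day 6 gave 0.904 and 0.888 CPM (1.25%). At day 6 the whole set had 21 counts in 5i6d1 and 22 in 5i6d2, where CK1 had 1712 and CK2 1760. The size of the first step depends on the day 0 libraries taken as its base: day 1 held 29.7% of the CK1 and CK2 mean but 46.3% of CK3, and day 2 held 43.1% of day 1.

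**Figure D1:**
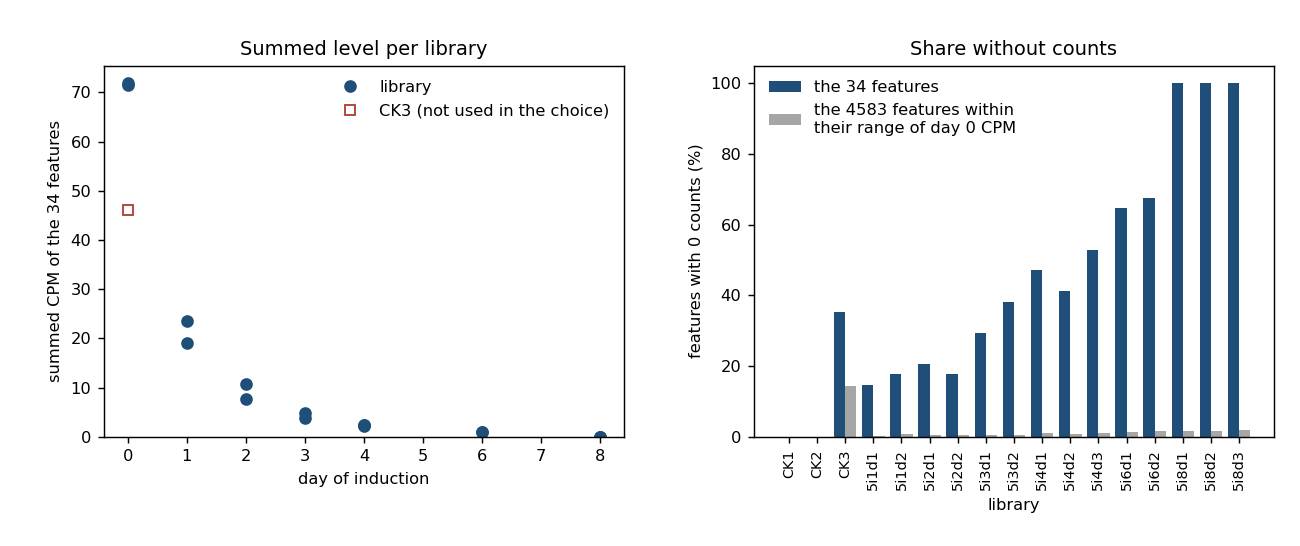
Left, summed CPM of the 34 features in each library (points; the open square is CK3) against the day of induction. Right, percent of features with 0 counts in each library, for the 34 features (dark bars) and for the 4583 features within their range of day 0 CPM (grey bars), with 64.7% and 1.42% in 5i6d1.

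Features left the count table one after another rather than on 1 day. In the day 1 libraries 5 and 6 of the 34 had 0 counts, and in the day 2 libraries 7 and 6. By day 3 the libraries lacked 10 and 13 of them, by day 4 they lacked 16, 14 and 18, and by day 6 they lacked 22 and 23. Over the same libraries, between 0.218% and 1.77% of the 4583 features of like day 0 level had 0 counts. The 34 are part of these shares, with 5 of the 10 features at 0 in 5i1d1 and 22 of the 65 in 5i6d1. The 4583 were matched by range only, and a count of 0 depends on the level. The last day with any count was day 2 for 4 features, day 3 for 1, day 4 for 14 and day 6 for 15. None of the 34 was already without counts in all 11 libraries. Of the 15 features with counts at day 6, 12 had at most 3 counts over both libraries, and the highest count was 8, for gene20146 in 5i6d1. A count of 0 at these levels lies within a few counts of detection, so the last day seen depends on depth as well as on the level.

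**Figure D2:**
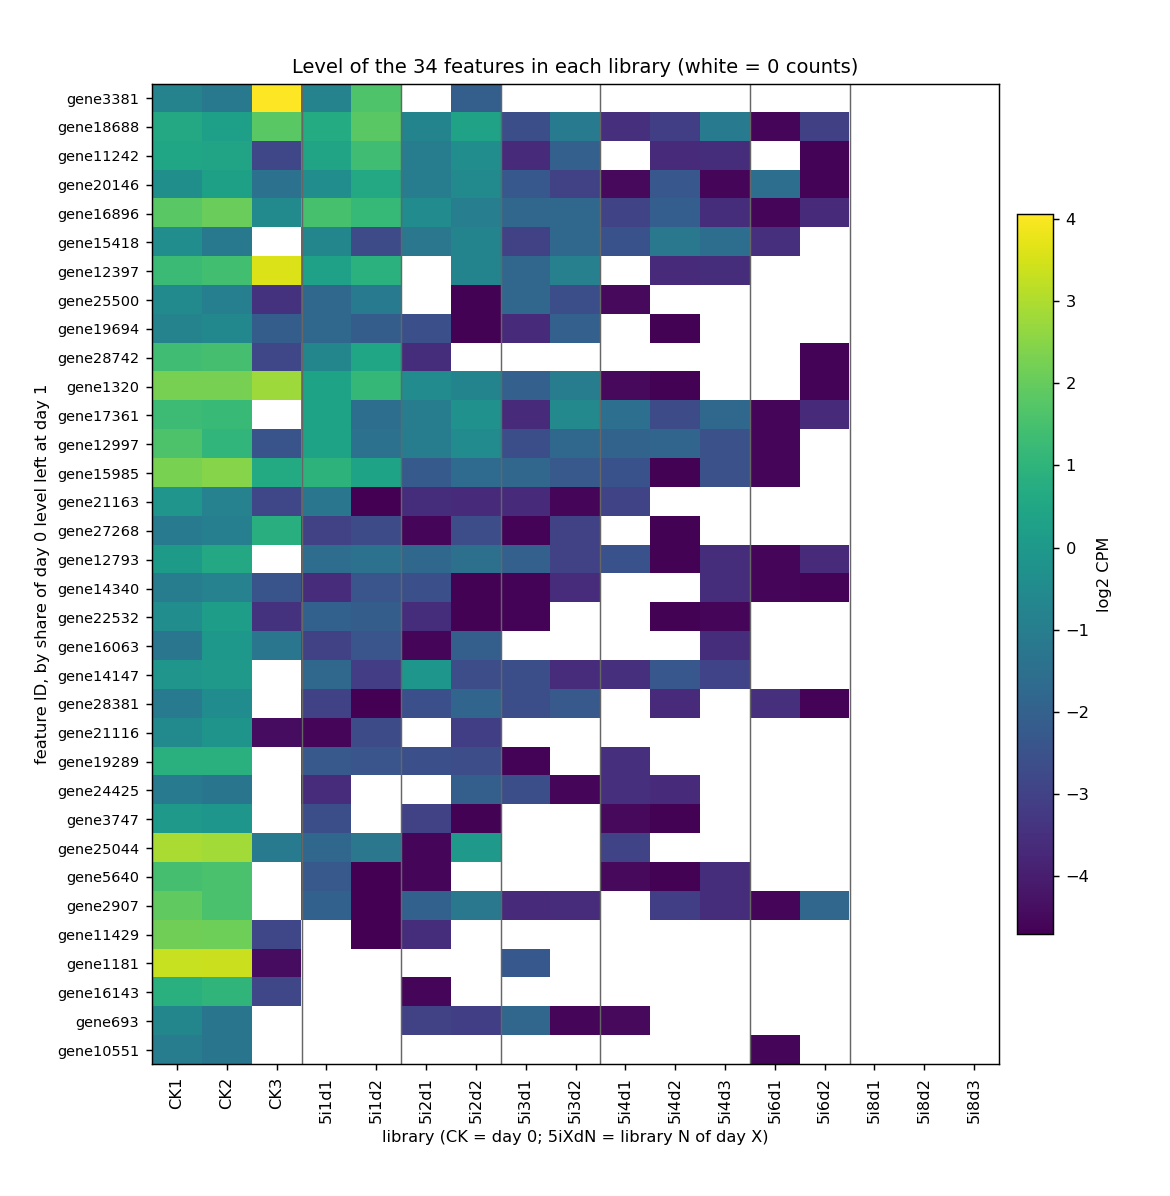
Heat map of log2 CPM for the 34 features (rows, ordered by the share of the day 0 level left at day 1) in the 17 libraries (columns, day 0 to day 8), with 0 counts in white. The bottom 10 rows were under 10% of their day 0 level at day 1, and the top 4 were above it.

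The features differed most in how much was left at day 1. With the mean of CK1 and CK2 as 100%, the day 1 mean was under 10% for 10 features, from 10% to 50% for 16, from 50% to 100% for 4 and over 100% for 4. The median was 26.9%, against 136% over the 4583 features of like day 0 level. At days 2, 3 and 4 the median of the 34 was 14.8%, 7.98% and 2.77%, and at day 6 it was 0%. These shares have CK1 and CK2 as their base, which the choice used, so they describe the order of loss and are not a test of it.

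The 10 features that were under 10% at day 1 included 5 of the 8 most abundant ones at day 0. The feature gene1181 had 243 counts in CK1 and 253 in CK2, the highest CPM of the set. It had 1 count in CK3, 0 counts in both libraries of day 1 and of day 2, 5 and 0 counts at day 3, and 0 in all libraries of days 4 and 6. Its mean over CK1 and CK2, 10.2 ± 0.135 CPM (SD, n = 2), was at least 171-fold above day 1, with 3 counts over the 2 day 1 libraries as the limit. CK3 gives no such difference, since its 1 count (0.0464 CPM) lies below that limit of 0.0600 CPM. Per length, gene1181 (2748 nt) had 3.72 FPKM in the mean of CK1 and CK2, where FPKM is the CPM divided by the feature's length in kilobases. Low counts from day 1 on were also found for gene11429, which had 108 and 106 counts in CK1 and CK2 but 3 in CK3, then 0 and 1 at day 1, 2 and 0 at day 2, and none later. The feature gene16143 had 43 and 50 counts in CK1 and CK2 and 3 in CK3, 0 in both day 1 libraries, and 1 count, in 5i2d1, after that.

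Other features of this group kept low counts for longer. The feature gene25044 had 184 counts in CK1, 175 in CK2 and 10 in CK3, 7 and 11 at day 1, 1 and 25 at day 2, 0 and 0 at day 3, 3, 0 and 0 at day 4 and none at day 6. Its libraries of day 2 differed far more than those of day 1. The feature gene2907 had 91 and 71 counts in CK1 and CK2 and 0 in CK3, and its counts on later days were low throughout. It had 6 and 1 counts at day 1, 6 and 11 at day 2, 2 and 2 at day 3, 0, 3 and 2 at day 4, then 1 and 7 at day 6. The ranges of these days overlap, so no order among them can be read. The feature gene5640 had 66 and 71 counts in CK1 and CK2 and 0 in CK3, 5 and 1 at day 1, and at most 2 in any later library. The remaining 4 of the 10 (gene3747, gene693, gene10551 and gene24425) had between 10 and 24 counts in the day 0 libraries of the choice.

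A second set of abundant features declined over several days. The feature gene15985 had 119 counts in CK1, 137 in CK2 and 34 in CK3, then 47 and 34 at day 1, 5 and 8 at day 2, 7 and 5 at day 3, 4, 1 and 4 at day 4, then 1 and 0 at day 6. Both day 1 libraries lay below CK1 and CK2 and above day 2. By library totals, CK3 lay between the day 1 libraries. The feature gene1320 had 116 and 119 counts in CK1 and CK2 and 148 in CK3, then 31 and 57 at day 1, 17 and 15 at day 2, 6 and 12 at day 3, 1, 1 and 0 at day 4, then 0 and 1 at day 6. The feature gene16896 kept 65.8% of its CK1 and CK2 mean at day 1. Its counts were 85 and 103 in CK1 and CK2 and 15 in CK3, 68 and 59 at day 1, 17 and 13 at day 2, 7 and 7 at day 3, 3, 6 and 2 at day 4, then 1 and 2 at day 6. CK1 and CK2 lay above both libraries of day 1, these above both of day 2, and these above both of day 3. By library totals, CK3 lay within the range of day 2.

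The day 1 mean was above the mean of CK1 and CK2 in 4 features, gene3381, gene18688, gene11242 and gene20146. In gene18688 the counts were 36 and 29 in CK1 and CK2 and 76 in CK3, 39 and 92 at day 1, 14 and 32 at day 2, 4 and 11 at day 3, 2, 3 and 11 at day 4, then 1 and 3 at day 6. In gene11242 they were 33 and 33 in CK1 and CK2 and 3 in CK3, 32 and 68 at day 1, 12 and 19 at day 2, 2 and 6 at day 3, 0, 2 and 2 at day 4, then 0 and 1 at day 6. In gene20146 they were 19 and 30, with 8 in CK3, then 18 and 39 at day 1, 12 and 17 at day 2, 5 and 3 at day 3, 1, 5 and 1 at day 4, then 8 and 1 at day 6. In each of these features 5i1d2 carried the excess, while 5i1d1 was close to CK1 and CK2. The feature gene3381 had 14 and 11 counts in CK1 and CK2 and 360 in CK3, 14 and 81 at day 1, 0 and 6 at day 2 and none from day 3 on. The day 1 mean of 1.84 ± 1.78 CPM (SD, n = 2) was 357% of the CK1 and CK2 mean, with the whole excess in 5i1d2. The spread between the day 1 libraries was as large as their mean, so no rise at day 1 can be read for gene3381.

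**Figure D3:**
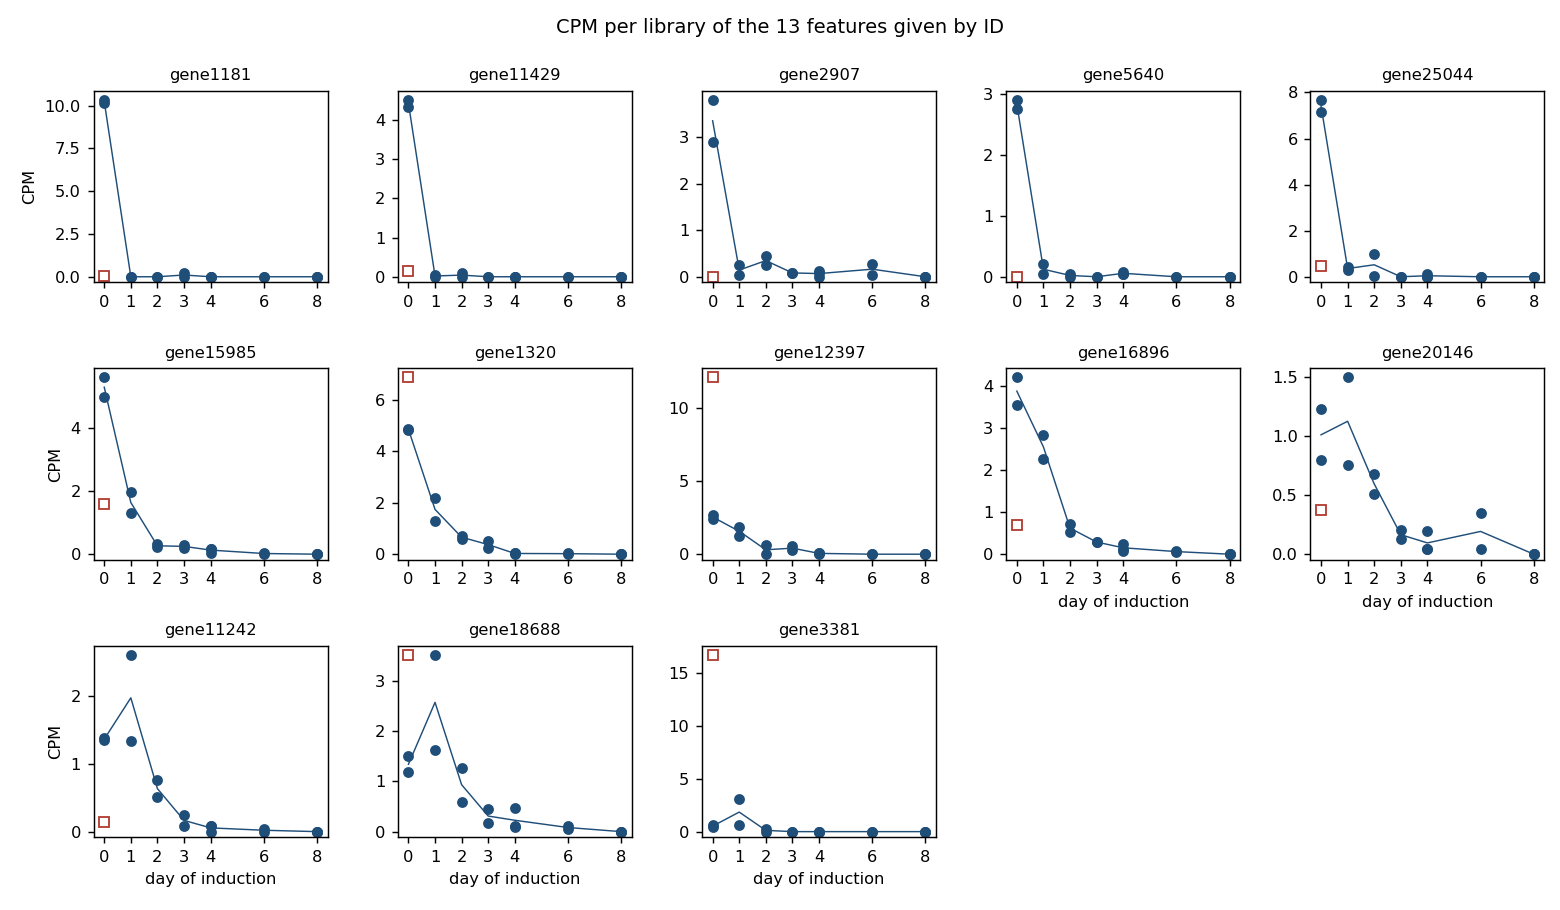
CPM per library (filled points; line, mean of the day with CK1 and CK2 at day 0; open squares, CK3) against the day of induction for 13 features. The upper row shows the features that were under 5% of their day 0 level at day 1, such as gene1181 at 0 CPM, and the panels run to gene3381 at 1.84 CPM at day 1.

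The libraries of days 1 to 6 were then tested for a trend, as the slope of log2 expression per day, to ask which of the 34 features fell among libraries that had no part in their choice. A decline was to be looked for in features known to end at 0, so the direction carries little, and the test shows which features fell beyond the spread between libraries after day 1. Without a filter on low counts, 22 of the 34 were called lower by edgeR's quasi-likelihood test with Benjamini-Hochberg adjustment over 22199 features (adjusted p under 0.05), and 0 were called higher, where 16.9% of all features were called lower and 14.9% higher. At an unadjusted edgeR p under 0.05, 24 of the 34 were lower and 0 higher, where 9468 of the 22199 features passed in either direction. DESeq2 called 20 of the 34 lower and 0 higher, and 4130 of the 22199 features lower and 3831 higher. Leaving out 1 library at a time in edgeR gave 17 to 22 of the 34, and 2639 to 4094 of all features. The slopes of the 22 ran from -3.44 in gene3381 to -0.56 in gene12793 (log2 per day), and 23 of the 34 were steeper than the 5th percentile of all features, -0.58. The median slope was -0.83 for the 34 and -0.01 for all features.

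**Figure D4:**
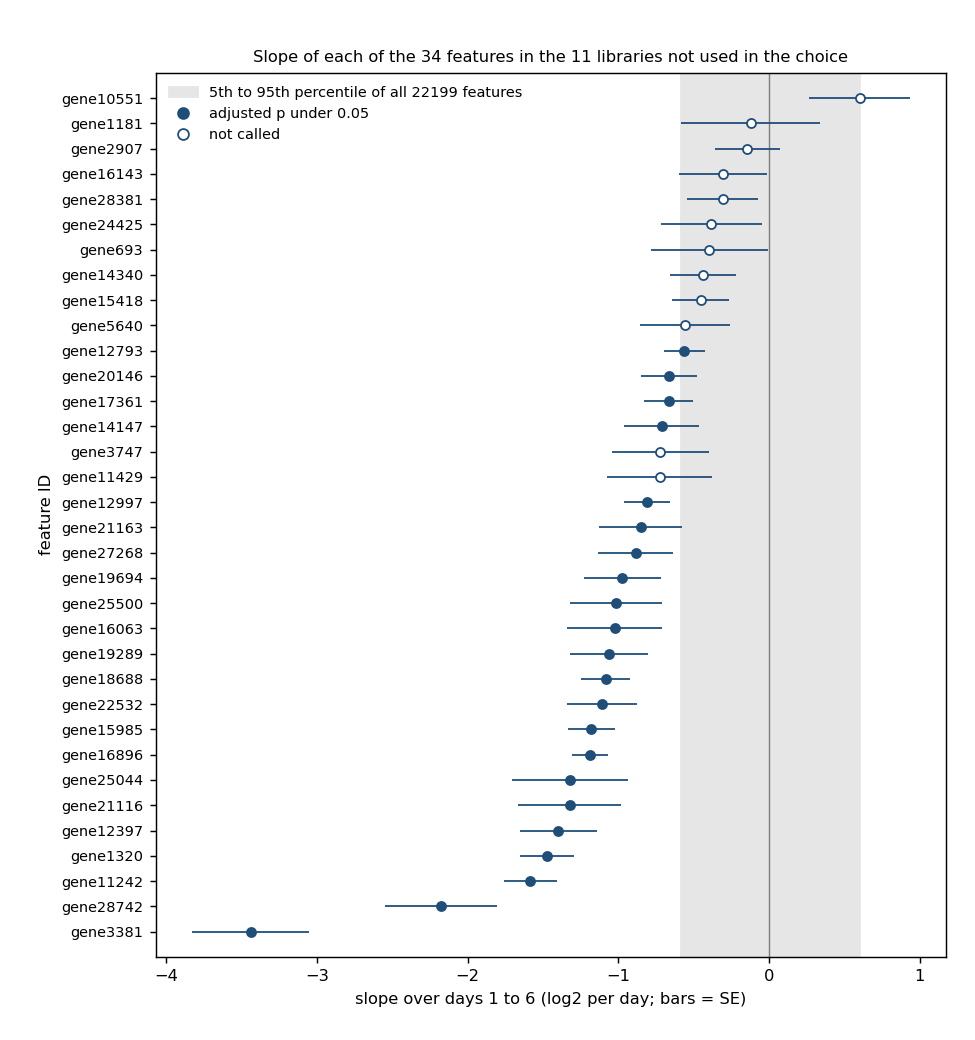
Slope over days 1 to 6 in log2 per day with its SE for each of the 34 features, from the fit of 11 libraries without a filter; filled points have an edgeR adjusted p under 0.05 and the grey band holds the middle of all 22199 features. The 22 filled points lie between -3.44 and -0.56, and gene1181 (-0.12) is among the open ones.

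The features without a call were mostly those that were already near 0 at day 1. Of the 10 features under 10% at day 1, only gene25044 was called lower (slope -1.32, SE 0.39, edgeR adjusted p = 0.0192), with 0 counts at day 6. The slope of gene1181 was -0.12 (SE 0.46, edgeR adjusted p = 0.867), and that of gene2907 was -0.15 (SE 0.22, edgeR adjusted p = 0.643). Of the other 24 features, 21 were called lower. This split was made by the day 1 level, from which the slope starts, in features chosen to end at 0. Its outcome was largely set in advance, so it is a description and no test. The 1 feature with a positive slope, gene10551, had a single count in all 11 libraries, in 5i6d1. For these features no change after day 1 was detectable at this depth.

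With the planned filter, a mean of 5 counts or more over the 11 libraries, 11 of the 34 were tested and 10 were called lower, where 22.5% of the 16557 features tested were called lower and 20% higher. These 11 are the ones with the most counts after day 0, and not the whole set. Most of their counts fell on days 1 and 2, as in gene3381 with 14 and 81 of 101 counts at day 1. The filter thus favours members that were high early among features that end at 0. The calls among the 11, here and in the comparisons with day 1, are partly set by it and add no support to the fit without a filter. The smallest adjusted p belonged to gene16896, with a slope of -1.19 (SE 0.12, edgeR adjusted p = 2.31e-05). The slope of gene11242 was -1.59 (SE 0.18, edgeR adjusted p = 5.03e-05), and that of gene1320 was -1.47 (SE 0.18, edgeR adjusted p = 8.60e-05). For gene15985 it was -1.18 (SE 0.15, edgeR adjusted p = 0.000141), and for gene18688 it was -1.08 (SE 0.16, edgeR adjusted p = 0.000379). The steepest slope was that of gene3381, -3.46 (SE 0.40, edgeR adjusted p = 0.000138). It was -1.77 with DESeq2, with an adjusted p of 0.0587, and 8 of the 11 libraries had 0 counts. Against a limit of 3 counts over both day 6 libraries, gene3381 was at least 29.5-fold lower at day 6 than in the mean of day 1, and at least 9.35-fold lower than in 5i1d1 alone. It was not called in the comparison of day 6 with day 1 (edgeR adjusted p = 0.0502). The slope of gene20146 was -0.67 (SE 0.19, edgeR adjusted p = 0.0145), but -0.50 without 5i1d2 (edgeR adjusted p = 0.0681) and -1.16 without 5i6d1. The 1 feature of the 11 without a call was gene15418, at -0.44 (SE 0.19, edgeR adjusted p = 0.0723).

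Day 6 and day 4 were compared with day 1 in a fit of the same 11 libraries with each day as a group. At day 6, 8 of the 11 were called lower and 0 higher, where 14.7% of all features were called lower and 13.7% higher. Without 5i6d1 it was 5 features, of 14 tested. In gene16896 the day 1 level was 2.55 ± 0.409 CPM and the day 6 level 0.0619 ± 0.0266 CPM (SD, n = 2 each), a log2 difference of -5.21 (SE 0.56, edgeR adjusted p = 0.000778). In gene18688 the corresponding levels were 2.58 ± 1.34 CPM and 0.0821 ± 0.0552 CPM (SD, n = 2 each), a log2 difference of -4.90 (SE 1.02, edgeR adjusted p = 0.00993). The feature gene12397 had 0 counts at day 6 and was at least 25.05-fold lower than at day 1, with 3 counts over both day 6 libraries as the limit (edgeR adjusted p = 0.0211). Both day 1 libraries lay above both day 6 libraries in 25 of the 34, which held for 28.3% of the 22199 features with counts on these days. The 34 were chosen to end at 0 counts and were mostly near 0 by day 6, so these shares are a description and no test.

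At day 4, 7 of the 11 were called lower than at day 1 and 0 higher, where 5.89% of all features were called lower and 5.26% higher. It was 4 features without 5i1d2, 4 without 5i4d1 and 4 without 5i4d2. The largest part of the decline of gene1320 lay before day 4, with a change from day 1 of -5.81 in log2 (SE 0.75, edgeR adjusted p = 0.00406) and 2 counts left over the 3 libraries. In gene17361, by contrast, 8, 4 and 7 counts were left at day 4 against 31 and 9 at day 1. In log2 the change from day 1 was -1.60 (SE 0.79, edgeR adjusted p = 0.190) at day 4 and -3.53 (SE 1.09, edgeR adjusted p = 0.0401) at day 6. The difference between the courses of gene1320 and gene17361 was not tested.

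CK3, the day 0 library that the choice did not use, held these features at other levels than CK1 and CK2. Their summed level was 46.0 CPM, or 64.2% of the CK1 and CK2 mean, by library totals. With TMM factors it was 124 CPM, above the 73.7 CPM of CK1 and CK2, so whether the sum was lower or higher in CK3 turns on the scaling. There were 0 counts in CK3 for 12 of the 34, 1 to 9 counts for 14 and 10 or more for 8. Of the 4583 features of like day 0 level, 14.3% had 0 counts in CK3. CK3 was below both other day 0 libraries in 28 features, between them in 1 and above both in 5. Over the 14302 features with 10 or more counts in CK1 and CK2 it was below both in 73.5% and above both in 25.1%. With TMM factors CK3 was below both in 26 of the 34 and above both in 6, against 59.4% and 39.2% of the 14302. CK3 held 360 counts of gene3381 against 14 and 11, 260 of gene12397 against 58 and 65, and 148 of gene1320 against 116 and 119. It held 76 of gene18688 against 36 and 29, and 37 of gene27268 against 11 and 13. The features gene3381 and gene12397 thus held most of the 991 counts of the set in CK3. The description of the set as fibroblast features rests on CK1 and CK2, and with CK3 added to the rule 8 of the 34 would remain.

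Features that were nearly gone at day 1 were also low in CK3. All 10 features under 10% of the CK1 and CK2 mean at day 1 were under 10% of it in CK3 too, with 1 count in CK3 for gene1181, 3 for gene11429, 3 for gene16143 and 10 for gene25044, and 0 for the other 6. Of the 24 features with 10% or more left at day 1, 10 were under 10% in CK3. Among the 4583 features of like day 0 level, 40 were under 10% at day 1, and 33 of them (82.5%) were under 10% in CK3, against 36.9% of the whole 4583. With TMM factors 11 of the 34 were under 10% at day 1, and 9 of these were under 10% in CK3. Among the 4583, which include the 34, 46 were then under 10% at day 1, and 28 of these in CK3. Of the whole 4583, 24.0% were under 10% in CK3 with TMM factors. The day 1 and CK3 shares both have CK1 and CK2 as their base. A feature that is high in these libraries alone is thus low on both counts. For the 10 features, loss in the first day of induction and a high level particular to CK1 and CK2 cannot be told apart with these libraries.

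**Figure D5:**
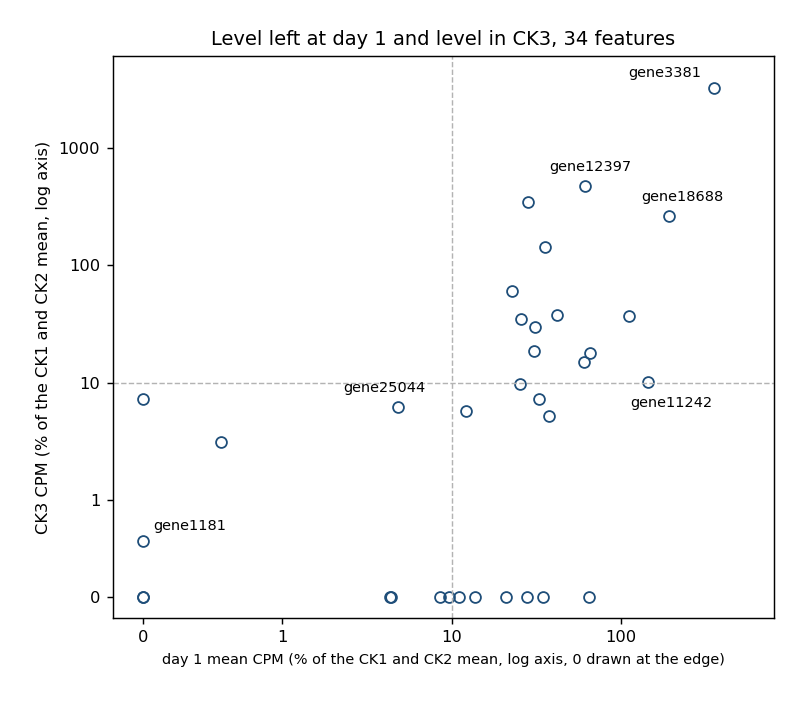
Level in CK3 against the day 1 mean for the 34 features, both in percent of the CK1 and CK2 mean on log axes with 0 drawn at the edge; dashed lines mark 10%. The 10 features left of the vertical line all lie below the horizontal one, while gene3381 lies at 357% of day 0 at day 1 and at 32.3 times the CK1 and CK2 mean in CK3.

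The libraries numbered 1 and 2 within a day also differed for some of the 34. At day 1 they differed over the whole table too, with a rank correlation of 0.867. The 5 features that were above CK1 and CK2 in CK3 were all higher in 5i1d2 than in 5i1d1, in gene27268 with only 4 against 3 counts. Of the 12 features with 0 counts in CK3, 9 were lower in 5i1d2 than in 5i1d1 and 1 was higher. At day 2 the same comparison gave 4 of the 5 higher in 5i2d2, and 5 of the 12 lower and 6 higher. The feature gene17361, with 0 counts in CK3 and 59 and 56 in CK1 and CK2, had 31 counts in 5i1d1 and 9 in 5i1d2, but 12 and 21 in the day 2 libraries, and 2 and 16 in those of day 3. The same shares over all features were not determined, so these counts are not read as a trait of the 34. The numbers are those of the column names, whose meaning the labels do not give.

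Feature length was not used in the choice. The 34 features ran from 72 nt (gene27268) to 9348 nt (gene17361), with a median of 2342 nt, where the 4583 features of like day 0 level had a median of 2439 nt. Features under 350 nt were 4 of the 34, gene27268 (72 nt), gene12397 (217 nt), gene19694 (226 nt) and gene3381 (309 nt), or 11.8%, against 1.18% of the 4583. The number is small, the limit of 350 nt was not a planned one, and the medians were close. Of the 4, 3 were higher in CK3 than in CK1 and CK2. Per length the order of levels changed. The highest mean FPKM over CK1 and CK2 were 11.7 in gene12397, 6.87 in gene27268, 5.20 in gene15985, 3.72 in gene1181 and 3.54 in gene28742, and the lowest was 0.0637 in gene14340, a feature of 8422 nt. A length of 72 nt is short against library fragments, so the FPKM of gene27268 depends on how such reads were counted. The running numbers of the 34 IDs were at least 47 apart, so no 2 of them were listed under neighbouring IDs.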

How the data were processed

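Total RNA was depleted of ribosomal RNA, reverse transcribed with random hexamers and sequenced on an Illumina HiSeq. The authors deposited whole-number counts per feature, not normalized, and FPKM values for the same 17 libraries. The submitters' processing notes name FastQC 0.10.1, HTSeq and DESeq2 1.16.1. The aligner, genome build, annotation and strand setting are not given in the sources used here, so reads of overlapping or antisense features cannot be told apart. Each column was given its day from the column name, and 6 of the 23 labelled samples (passaged induced cells and natural mammary epithelial cells) were not analysed here. A single whole-number length per feature reproduced all 22657 deposited FPKM rows from the counts (relative tolerance 1e-06), and these lengths are used here.

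The 34 features, tests and alternatives were chosen with earlier results of these data known. Counts of the 11 libraries of days 1 to 6 were fitted with edgeR 4.0.16 in R 4.3.3 (TMM, quasi-likelihood F test, Benjamini-Hochberg adjustment over all features tested, calls at an adjusted p under 0.05). The trend fit had the day as a number, and the comparisons with day 1 had it as a group. A feature entered when its mean over these libraries reached 5 counts, from whichever day the counts came. In features that end at 0 these counts come mostly from the early days. The fit without a filter is given since 23 of the 34 were below this mean. The SE was derived from the log2 change and its F statistic. The scripts were tested on simulated counts. DESeq2 1.42.0, RLE normalization, filterByExpr, CK3 at day 0, a replicate block and leaving out each library were alternatives.

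By the rule for features given by ID, these were the 8 with the highest day 0 CPM, the 4 smallest adjusted p of the trend in each direction, the 4 highest levels over days 1 to 6, the 4 with the largest daily mean above day 0 and the 4 with the most counts in CK3. Other IDs were added after their values were seen. The listed cell type markers were not tested, as no ID could be paired with a gene name.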

Additional observations from a re-analysis of the deposited data

How the results depend on the processing

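The members depend on the thresholds: a minimum of 5 counts in CK1 and CK2 gave 58 features, a minimum of 20 gave 19, and up to 1 count in each day 8 library gave 71. In the trend, 10 of the 34 were called lower with the filter and 22 without it, where all 34 were tested. The latter count was 20 with DESeq2, 21 with the replicate block and 22 with CK3 added at day 0, alternatives chosen after seeing the data, and 17 to 22 without single libraries. Over all features these fits called 4130, 3861 and 4348 lower, and 2639 to 4094 without single libraries. With the filter, 9 to 13 of the 10 to 14 members tested were called lower without single libraries, and 2722 to 4225 of all features. At day 6, 13 of the 34 and 2366 of all 22199 features were called lower without the filter. With the filter it was 5 to 10 members without single libraries (5 without 5i6d1). At day 4, with the filter, it was 4 to 9 without single libraries. Over all features, leaving out single libraries gave 521 to 4588 lower and 884 to 4617 higher calls at day 6, and 117 to 4080 lower and 200 to 4074 higher at day 4. DESeq2 gave 1859 lower and 1702 higher at day 4, against 976 and 871 with edgeR, and the replicate block gave 1592 higher. The cause was not tested. With TMM factors the summed level was 73.7 CPM at day 0, 2.06 at day 4 and 0.859 at day 6, and in CK3 it was 124 against 46.0, a scaling looked at after seeing the data. The differences of library 2 from library 1 correlated at 0.567 to 0.738 among days 1, 2 and 3. Day 6 gave 0.0742 with day 1, 0.141 with day 2 and 0.263 with day 3. Between day 4 and the other days the values were 0.0423 to 0.0946. The rank correlation of 5i4d1 and 5i4d2 was 0.997, so their small difference cannot decide whether day 4 was paired. As not every pair of days was over 0.1, the number in the column names was not taken as a pairing of all days. A pairing was not excluded. With it as a replicate block, 10 of the 11 features were called lower in the trend, as without it. None of the slopes of gene11242, gene12397, gene1320, gene15985, gene16896, gene18688, gene20146 and gene3381 reversed under the alternatives run for them. Depth limits the set, since 15 of the 34 had under 20 counts in CK1 or CK2.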
